A study of Homo sapiens with 12 samples.

Results

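The core genes of the transforming growth factor beta (TGF-beta) pathway were examined in 3 renal cancer cell lines after miR-29 was added or inhibited. The 9 genes were the ligands TGFB1, TGFB2 and TGFB3, the receptors TGFBR1 and TGFBR2, and the intracellular proteins SMAD2, SMAD3, SMAD4 and SMAD7. They were chosen by name, with earlier results of these data known. Found by symbol among the 58051 genes of the count tables, all 9 passed the filters on low counts in every comparison.

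TGF-beta ligands are secreted in a latent form, and once released they bind the type II receptor TGFBR2, which phosphorylates the type I receptor TGFBR1. TGFBR1 then phosphorylates SMAD2 and SMAD3, which join SMAD4 and enter the nucleus to control transcription, while SMAD7 is induced by the pathway and blocks the type I receptor. In renal epithelium the pathway is known for extracellular matrix production and for loss of epithelial character, and miR-29 is a family of small RNAs known for lowering many matrix mRNAs.

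RNA-seq was performed in 786-O, A-498 and ACHN cells, established lines that the labels describe as clear cell renal cell carcinoma. 786-O cells received a miR-29 mimic or a control mimic (1 library each), A-498 cells received a miR-29 mimic or a control mimic (2 libraries each), and ACHN cells received a miR-29 inhibitor or a control inhibitor (3 libraries each). All cells, controls included, were transfected with RNAiMAX at 10 nM in medium without antibiotics, and RNA was taken after 48 h. The methods describe the replicates as biological, and further A-498 libraries that the study left out over doubtful labels were not analysed here.

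Libraries held 39919554 to 70027392 reads in genes. The renal epithelial genes PAX8, KRT8 and KRT18 were present in every library (lowest value 68.4 CPM, read counts scaled to library depth), whereas CA9, a usual marker of clear cell carcinoma, was at most 0.331 CPM in 786-O and 0.166 CPM in ACHN and reached 10.9 CPM in A-498. The summed level of 8 markers of leukocytes, endothelium and mural cells lay between 1.73 and 5.86 CPM over the 12 libraries. In the libraries of A-498 it was 2.43 to 2.76 CPM in controls and 1.73 to 1.93 CPM with mimic, and in ACHN it was 1.90 to 2.03 CPM in controls and 2.86 to 3.53 CPM with inhibitor. PDGFRB, a mesenchymal receptor, was at 0.517 to 5.39 CPM, while the leukocyte marker PTPRC was at most 0.228 CPM and CD3E was at 0 in 786-O and A-498. Their part in the results was not tested.

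The miRNAs are shown because the seed, bases 2 to 8 and here in capitals, is what pairs with a target mRNA. The human miR-29 family members share it, as does the mature strand of the mimic in the study's methods, and the sequences are from RefSeq (GRCh38.p14), written 5′ to 3′.
hsa-miR-29a-3p: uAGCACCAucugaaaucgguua
hsa-miR-29b-3p: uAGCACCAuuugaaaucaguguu
hsa-miR-29c-3p: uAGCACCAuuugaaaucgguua

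The longest annotated 3′ UTR of each of the 9 genes was searched on the sense strand for TGGTGCT, the match to the seed, and for GGTGCTA, the match to bases 2 to 7 followed by A. TGGTGCT was found in 2 of the 9 genes, TGFB2 and SMAD2, and in 15.0% of 19248 protein-coding genes. Longer 3′ UTRs held it more often. Among genes with a 3′ UTR of like length, the gene itself included, 25.8% of 2529 had it for TGFB2 and 2 of 2 for SMAD2. GGTGCTA without the preceding T was found in TGFB3 alone among the 9. Either match, TGGTGCT or GGTGCTA, was held by 17.8% of the 19248 protein-coding genes. The windows below are 30 bases of the sense strand of GRCh38 in the 3′ UTR of the last exon, with the matched letters in capitals. They are shown because they hold every such match in the 9 genes. TGFB2 and TGFB3 had the largest responses of the 9 genes to the mimic in A-498, where TGFB1, SMAD3 and SMAD7 also fell without either match. The log2 difference of SMAD2, which holds TGGTGCT, was -0.24 there, against -0.43 for TGFB1, -0.24 for SMAD3 and -0.33 for SMAD7. With the inhibitor in ACHN that of SMAD2 was -0.16. The part of the matches in these responses was not tested.
TGFB2: gtctgtttttgTGGTGCTctagtggtaaat
TGFB3: tcctggaagcaGGTGCTAcaacatgtgagg
SMAD2: ggtcctgctgcTGGTGCTcatcctgccatc

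The TGFB2 match lay 2599 nt after the stop codon, at chr1:218443961-218443967 on the plus strand. The TGFB3 match lay 886 nt after the stop codon, at chr14:75958295-75958301 on the minus strand. The SMAD2 match lay 26796 nt after the stop codon, at chr18:47815025-47815031 on the minus strand, inside an annotated 3′ UTR of 32870 nt. In the first 2000 nt of the 3′ UTR, TGGTGCT was found in 0 of the 9 genes and in 10.7% of all genes. Shorter matches of 6 bases occurred in SMAD2 (3) and SMAD3 (2), and none of the searched matches was found in TGFB1, TGFBR1, TGFBR2, SMAD4 or SMAD7. A match describes letters and does not show that miR-29 bound there.

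The levels of the 9 genes in control cells differed widely between the lines. They are given in CPM per kb of exon sequence to set genes side by side, and the comparison rests on the annotated length of each gene. TGFBR2, the ligand-binding receptor, was highest in 786-O at 54.3, followed by TGFB1 at 52.4, TGFB2 at 31.3, SMAD7 at 14.3, TGFBR1 at 10.5, SMAD3 at 8.35, SMAD2 at 3.63, SMAD4 at 2.71 and TGFB3 at 1.29 CPM per kb (1 library). In A-498 the order began with TGFB2 at 19.3 ± 0.146, TGFBR2 at 14.1 ± 0.114, SMAD3 at 11.6 ± 0.430 and TGFBR1 at 10.4 ± 0.662 CPM per kb (SD, n = 2). It went on with SMAD7 at 8.62 ± 0.251, TGFB1 at 7.12 ± 0.331, SMAD4 at 2.52 ± 0.116, SMAD2 at 2.24 ± 0.149 and TGFB3 at 0.787 ± 0.00722 CPM per kb, and no pair of neighbours in that order overlapped between libraries. SMAD3, a receptor-activated SMAD that binds DNA, led in ACHN at 23.0 ± 0.250, ahead of TGFB2 at 10.4 ± 0.285, TGFBR2 at 7.84 ± 0.351 and SMAD7 at 7.55 ± 0.211 CPM per kb (SD, n = 3). TGFBR1 at 5.93 ± 0.217, TGFB1 at 3.99 ± 0.163, SMAD4 at 3.96 ± 0.0403, SMAD2 at 3.19 ± 0.101 and TGFB3 at 0.175 ± 0.0238 CPM per kb followed in ACHN. The ranges of TGFBR2 and SMAD7, and those of TGFB1 and SMAD4, overlapped there, so their order was within the spread of the libraries. TGFB3 was the lowest of the 9 genes in every line. The low place of SMAD2 rests on its annotated length of 36426 bp. Per kb it came after SMAD4 in the A-498 and ACHN controls. Its CPM before division by length was higher, with means of 81.6 against 49.4 (A-498) and 116 against 77.7 (ACHN). Its MANE transcript is also long, at 34626 bp, and whether the counted SMAD2 transcripts had such a length was not tested. The order depended on the length used: per kb of the MANE transcript, TGFBR2 came before TGFB2 in A-498 (21.3 against 19.9) and in ACHN (11.9 against 10.7), and SMAD3 in A-498 and SMAD4 in A-498 and ACHN were at 17.9, 5.63 and 8.86 CPM per kb.

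**Figure D1:**
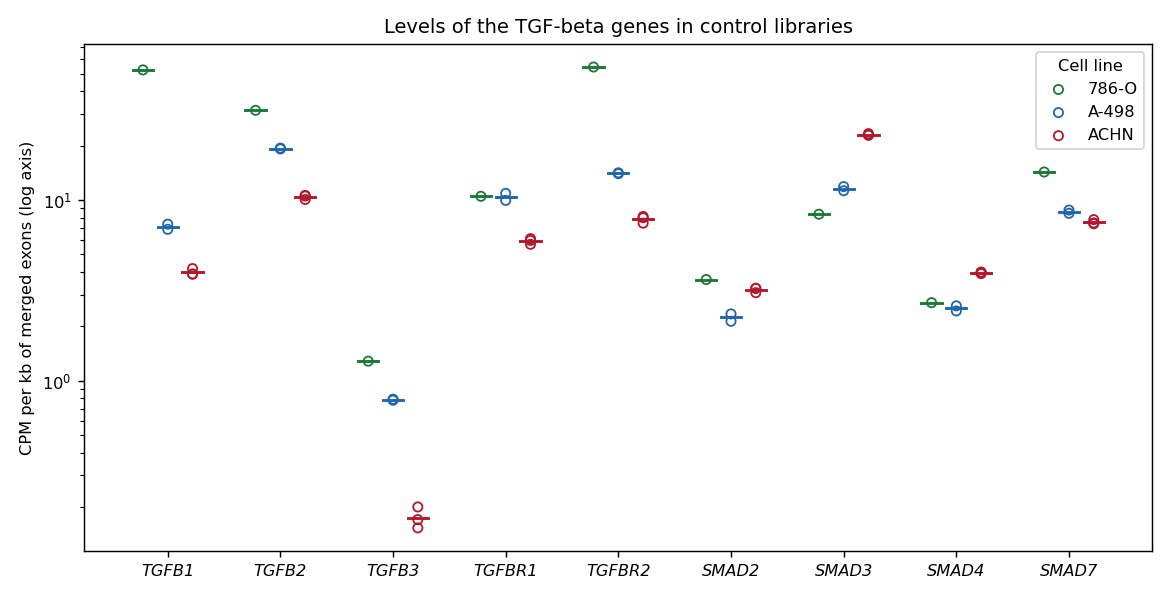
Control levels of the 9 genes in CPM per kb of merged exons on a log axis, with a circle for each library and a line at the mean (786-O n = 1, A-498 n = 2, ACHN n = 3). TGFB1 and TGFBR2 were highest in 786-O, at 52.4 and 54.3 CPM per kb, whereas SMAD3 was highest in ACHN, at 23.0 CPM per kb.

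In a fit of the 6 control libraries, all 9 genes differed between A-498 and ACHN (edgeR quasi-likelihood test, adjusted p under 0.05), where 75.3% of all genes tested differed. The ligands and receptors were higher in A-498 than in ACHN, with log2 differences of 0.82 ± 0.06 (SE) for TGFB1, 0.87 ± 0.04 for TGFB2, 2.15 ± 0.16 for TGFB3, 0.80 ± 0.05 for TGFBR1 and 0.83 ± 0.05 for TGFBR2. SMAD2, SMAD3 and SMAD4 were lower in A-498, by log2 differences of -0.52 ± 0.05, -1.01 ± 0.04 and -0.67 ± 0.05. SMAD7 differed by 0.18 ± 0.06 (adjusted p = 0.00921), and this call was lost without A-498 control mimic replicate 1 (adjusted p = 0.0565).

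The single 786-O control was set against the other controls in the same fit. Its own spread was not measured and was taken to equal that of the A-498 and ACHN controls, so the calls and errors that follow hold only under that assumption. On it, 8 of the 9 genes were called between 786-O and A-498, with 74.7% of all genes, and 9 between 786-O and ACHN, with 73.6% of all genes. TGFB1 was higher in 786-O by log2 2.93 ± 0.07 than in A-498 and by 3.75 ± 0.07 than in ACHN, and TGFBR2 was higher by 1.998 ± 0.06 and 2.82 ± 0.05 (edgeR). TGFB3 was higher in 786-O than in ACHN by 2.91 ± 0.18. For TGFBR1 the difference between 786-O and A-498 was 0.06, with a 95% interval of -0.09 to 0.20. The ACHN controls carried an inhibitor in place of a mimic, and line, control reagent and experiment cannot be told apart.

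In A-498 cells all 3 ligand mRNAs fell with the mimic, TGFB3 to 0.299-fold and TGFB2 to 0.439-fold of control, and in ACHN cells TGFB2 and TGFB3 rose with the inhibitor. Over the 9 genes in A-498, 6 fell and 2 rose (edgeR, adjusted p under 0.05), where 27.0% of the 19676 genes tested fell and 25.5% rose. With library size alone as scaling, 4352 genes fell and 6191 rose, against 5313 and 5015, and the calls of the 9 genes were the same. The median log2 change of the 9 genes was -0.24, against 0.00 over all genes tested. In ACHN, 4 of the 9 genes rose and 2 fell, where 17.3% of the 17904 genes tested rose and 14.4% fell, with a median of 0.06 against 0.00. In 786-O, 4 of the 9 genes were at least 1.5-fold lower with the mimic and 0 were at least 1.5-fold higher, where 19.0% and 15.7% of 20370 genes were. The 786-O median was -0.35 against -0.01, and with 1 library per group these ratios have no replicate check.

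**Figure D2:**
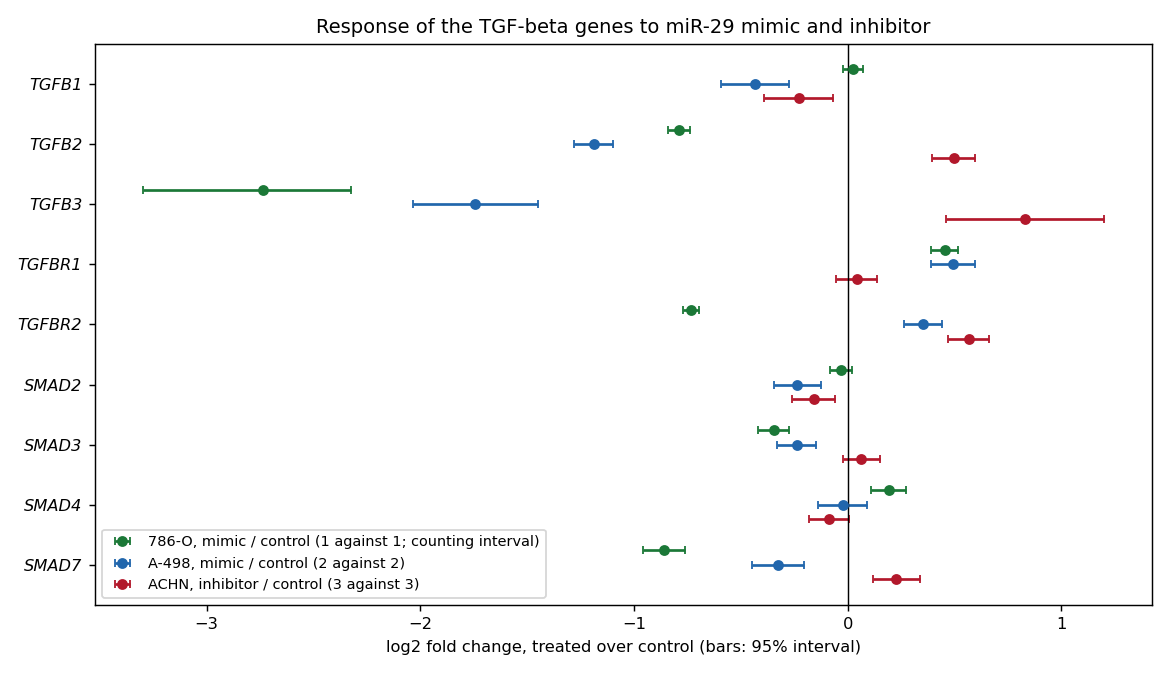
Log2 fold change of each gene, treated over control, in 786-O (1 against 1 library, 95% counting interval), A-498 (2 against 2) and ACHN (3 against 3), the last 2 with 95% intervals from edgeR. TGFB2, TGFB3, SMAD3 and SMAD7 lie below 0 with the mimic in both lines and above 0 with the inhibitor, where the interval of SMAD3 spans 0.

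TGFB2, a ligand with known roles in development and in the eye, was at 116 and 117 CPM in the A-498 controls and at 51.2 and 50.2 CPM with the mimic. The groups did not overlap, and the log2 difference was -1.19 ± 0.04 (SE; edgeR adjusted p = 2.83e-11). The ACHN controls were at 64.1, 60.9 and 63.6 CPM and the inhibitor libraries at 87.9, 86.6 and 95.8 CPM. All inhibitor libraries were above all controls, with a log2 difference of 0.50 ± 0.05 (edgeR adjusted p = 2.78e-07). In 786-O it was at 189 CPM in the control and 113 CPM with the mimic, from 8183 and 4760 reads, a ratio of 0.579 with a 95% interval of 0.558 to 0.600. This interval and those of the other 786-O ratios come from an exact conditional binomial test and cover counting error only. TGFB2 is the gene whose match is printed above at chr1:218443961-218443967.

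TGFB3, a ligand known for palate and lung development, had the lowest counts of the 9 genes, from 34 to 290 reads per library. It was at 4.08 and 4.14 CPM in the A-498 controls and at 1.23 and 1.20 CPM with the mimic. The groups lay well apart, with a log2 difference of -1.74 ± 0.14 (edgeR adjusted p = 8.45e-08). In ACHN it was at 0.894, 0.804 and 1.05 CPM in the controls and at 1.37, 1.76 and 1.84 CPM with the inhibitor. The groups did not overlap although both were low, and the log2 difference was 0.83 ± 0.18 (edgeR adjusted p = 0.00132). In 786-O it went from 290 to 42 reads, or 6.71 to 0.993 CPM, a ratio of 0.144 (95% interval 0.102 to 0.1997). This was the largest change of the 9 genes in any line.

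TGFB1, the most studied of the ligands and the main one in fibrosis, fell as TGFB2 and TGFB3 did in A-498 but did not follow them in ACHN or 786-O. It was at 23.9998 and 22.5 CPM in the A-498 controls and at 18.2 and 15.9 CPM with the mimic. All mimic libraries were below all controls, with a log2 difference of -0.43 ± 0.07 (edgeR adjusted p = 0.000181). The ACHN controls were at 13.6, 12.7 and 12.7 CPM and the inhibitor libraries at 10.9, 12.5 and 10.5 CPM, so it was lower there too. The groups were separate but close, with a log2 difference of -0.23 ± 0.08 (edgeR adjusted p = 0.0297). That call was lost on leaving out any single ACHN library except inhibitor replicate 2, with adjusted p-values of 0.0538 to 0.145. In 786-O, where TGFB1 was most abundant, it was at 171 CPM in the control and 178 CPM with the mimic, a ratio of 1.02 (95% interval 0.985 to 1.05).

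**Figure D3:**
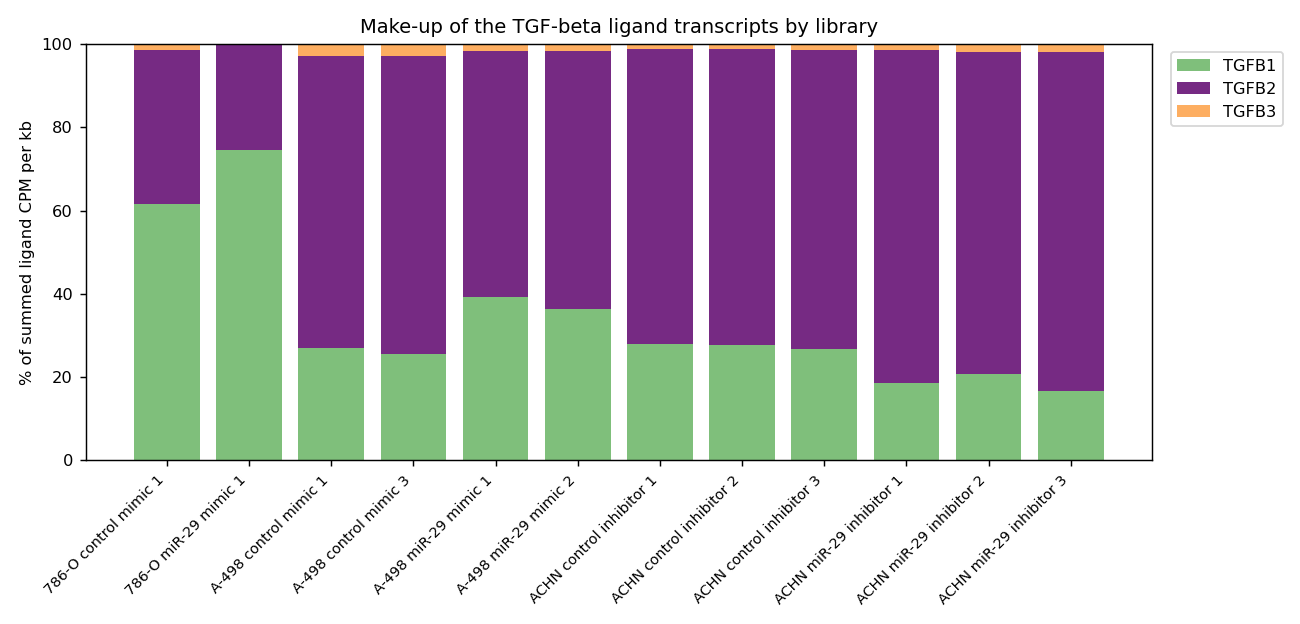
Share of TGFB1, TGFB2 and TGFB3 in the summed ligand CPM per kb of merged exons, 1 stacked bar per library from 0 to 100%. TGFB2 took 70.2% to 72.0% in the A-498 and ACHN controls, 59.2% and 62.0% with the mimic in A-498, and 77.5% to 81.6% with the inhibitor in ACHN.

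The make-up of the ligand transcripts differed between treated and control libraries in A-498 and ACHN. TGFB2 made up 70.2% and 71.6% of the summed ligand level per kb in the A-498 controls and 59.2% and 62.0% with the mimic, while the share of TGFB1 went from 26.9% and 25.5% to 39.1% and 36.3%. In ACHN the share of TGFB2 was 70.9%, 71.3% and 72.0% in the controls and 80.1%, 77.5% and 81.6% with the inhibitor. In 786-O, with 1 library per group, TGFB1 was the main ligand, with 61.6% in the control and 74.4% with the mimic, and TGFB2 had 36.9% and 25.3%. Per kb of merged exons, the length used for these shares, TGFB3 stayed below 3% in every library, at 0.259% to 2.93%. The shares depend on that length. In the A-498 controls the means of TGFB1, TGFB2 and TGFB3 were 7.12, 19.3 and 0.787 CPM per kb of merged exons. Per kb of the MANE transcript they were 8.36, 19.9 and 1.20, which gives TGFB3 a larger share. Within A-498 and within ACHN the shares of TGFB2 did not overlap between treated and control libraries, and no test was run on the shares. An mRNA share says nothing of the amount of active ligand, which is set after release from the latent complex.

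TGFBR2, the type II receptor, rose both with the mimic in A-498 and with the inhibitor in ACHN, and was lower with the mimic in 786-O. It was at 95.7 and 96.9 CPM in the A-498 controls and at 124 and 120 CPM with the mimic. The groups did not overlap, and the log2 difference was 0.35 ± 0.04 (edgeR adjusted p = 4.78e-06). In ACHN it was at 55.5, 51.0 and 54.7 CPM in the controls and at 79.8, 78.8 and 83.9 CPM with the inhibitor. All inhibitor libraries were above all controls, by a log2 difference of 0.57 ± 0.05 (edgeR adjusted p = 2.90e-08). In 786-O it was at 372 CPM in the control and 230 CPM with the mimic, from 16074 and 9721 reads, a ratio of 0.602 (95% interval 0.587 to 0.617).

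TGFBR1, the type I receptor kinase, rose with the mimic in A-498 from 79.5 and 86.99 CPM to 119 and 114 CPM. The groups lay apart, with a log2 difference of 0.49 ± 0.05 (edgeR adjusted p = 9.80e-07). In 786-O it was at 83.8 CPM in the control and 118 CPM with the mimic, a ratio of 1.37 (95% interval 1.31 to 1.43), below the 1.5-fold limit. The ACHN controls were at 47.7, 48.9 and 45.5 CPM and the inhibitor libraries at 50.9, 47.4 and 50.3 CPM. These groups overlapped, and the log2 difference of 0.04 had a 95% interval of -0.05 to 0.14 (edgeR adjusted p = 0.527).

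**Figure D4:**
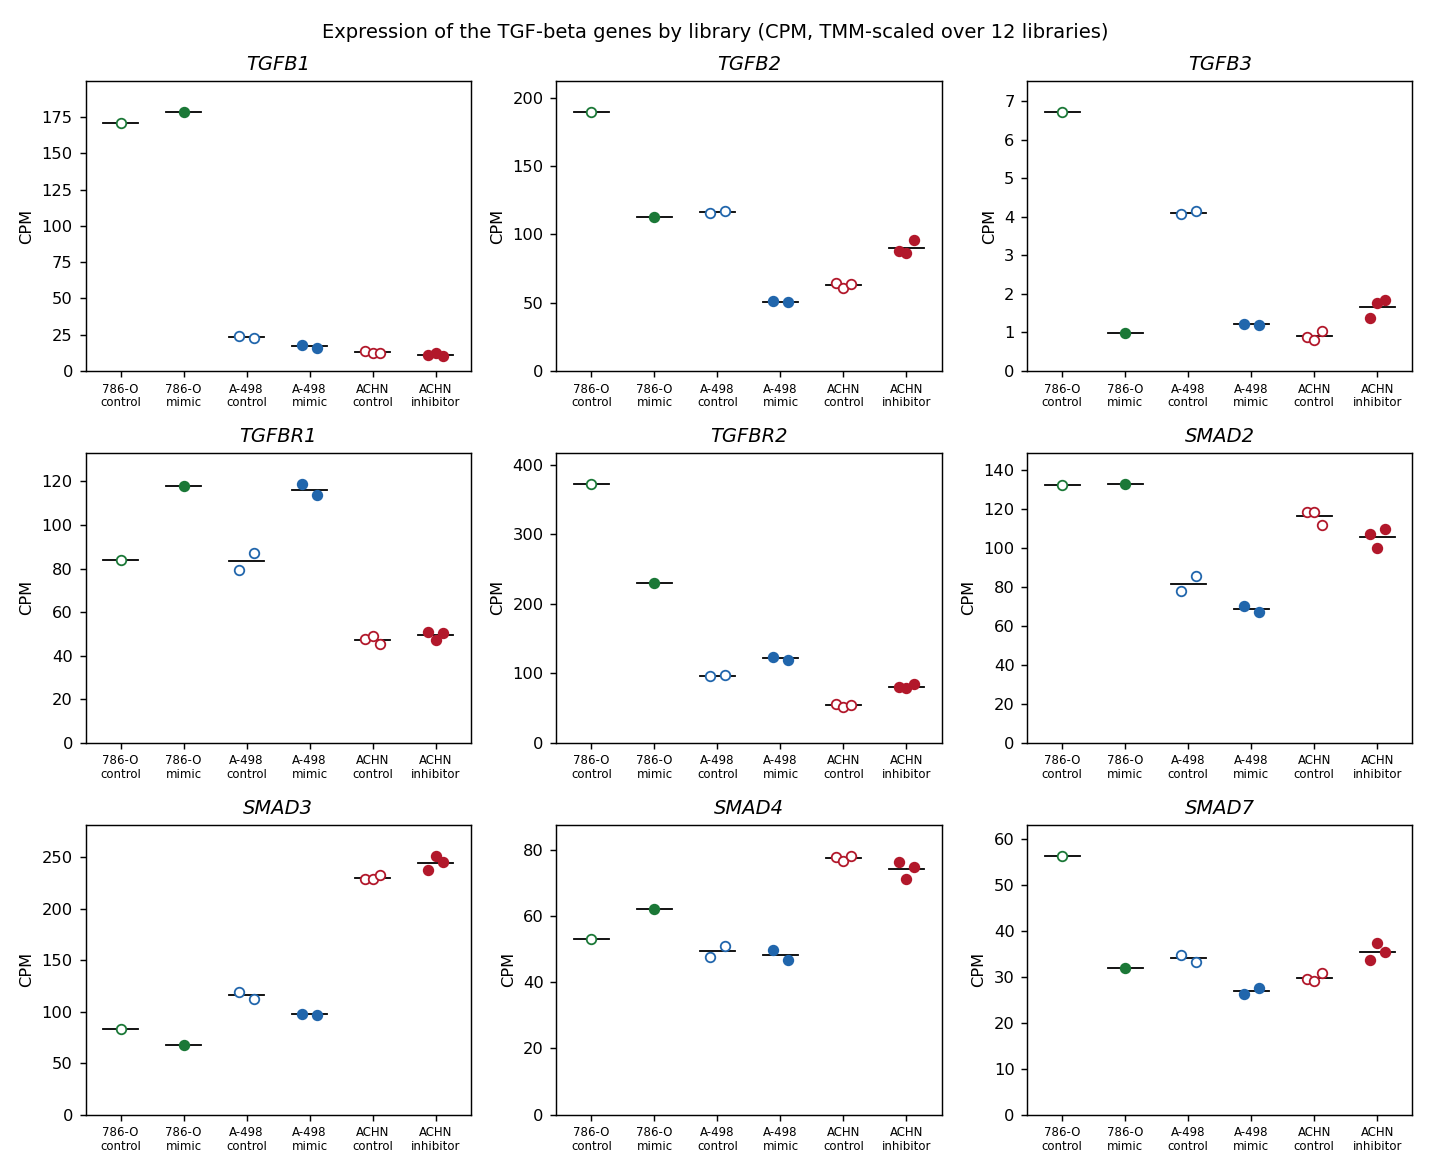
CPM of each gene in each library, with open circles for controls, filled circles for miR-29 mimic or inhibitor and a line at the group mean. Each panel has its own axis from 0, and in the panel of TGFBR2 the mimic library is below its control in 786-O (230 against 372 CPM) and above both controls in A-498 (124 and 120 CPM).

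The log2 differences of the signal-carrying SMAD2, SMAD3 and SMAD4 lay between -0.35 and 0.19 in all 3 lines. SMAD2 was at 77.8 and 85.5 CPM in the A-498 controls and at 70.2 and 67.3 CPM with the mimic, a log2 difference of -0.24 ± 0.05 without overlap (edgeR adjusted p = 0.00139). In ACHN it was at 118, 118 and 112 CPM in the controls and at 107, 100 and 110 CPM with the inhibitor. It was thus lower with the inhibitor as well, by a log2 difference of -0.16 ± 0.05 (edgeR adjusted p = 0.0152), a call that was lost without control inhibitor replicate 2 (adjusted p = 0.0724). In 786-O the ratio was 0.979 (95% interval 0.943 to 1.02), at 132 CPM in the control and 133 CPM with the mimic.

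SMAD3 was at 119 and 113 CPM in the A-498 controls and at 97.5 and 96.9 CPM with the mimic. The groups did not overlap, and the log2 difference was -0.24 ± 0.04 (edgeR adjusted p = 0.000255). In 786-O it was at 83.6 and 67.4 CPM, a ratio of 0.786 (95% interval 0.748 to 0.826) and thus within 1.5-fold. The ACHN controls were at 229, 228 and 233 CPM and the inhibitor libraries at 237, 251 and 245 CPM. Although all inhibitor libraries were above all controls, the log2 difference of 0.06 (95% interval -0.02 to 0.15) did not pass the test (edgeR adjusted p = 0.263).

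SMAD4, the shared partner of the receptor-activated SMADs, did not pass the test in either replicated line. It was at 47.7 and 51.0 CPM in the A-498 controls and at 49.7 and 46.6 CPM with the mimic, with overlapping groups and a log2 difference of -0.02 (95% interval -0.14 to 0.09; edgeR adjusted p = 0.739). In ACHN it was at 78.0, 76.8 and 78.3 CPM in the controls and at 76.5, 71.2 and 74.9 CPM with the inhibitor. The inhibitor libraries were slightly lower, with a log2 difference of -0.09 (95% interval -0.18 to 0.00; edgeR adjusted p = 0.142). In 786-O it was at 53.1 and 62.2 CPM, a ratio of 1.14 (95% interval 1.08 to 1.21).

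SMAD7, the inhibitory SMAD, followed TGFB2 and TGFB3 in direction. It was at 34.7 and 33.3 CPM in the A-498 controls and at 26.3 and 27.5 CPM with the mimic. The groups did not overlap, and the log2 difference was -0.33 ± 0.06 (edgeR adjusted p = 0.000198). The ACHN controls were at 29.5, 29.2 and 30.7 CPM and the inhibitor libraries at 33.6, 37.3 and 35.4 CPM. All inhibitor libraries were above the controls, by a log2 difference of 0.23 ± 0.05 (edgeR adjusted p = 0.00266). In 786-O it was at 56.4 CPM in the control and 31.9 CPM with the mimic, a ratio of 0.551 (95% interval 0.515 to 0.589).

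The A-498 and ACHN comparisons share no libraries, so their calls were set side by side. TGFB2, TGFB3 and SMAD7 (3 of 9) fell with the mimic in A-498 and rose with the inhibitor in ACHN, as did 10.5% of the 16708 genes tested in both. None of the 9 genes rose with the mimic and fell with the inhibitor, the pattern of 7.37% of genes. TGFB1 and SMAD2 fell in both and TGFBR2 rose in both, and these 3 of 9 compare with 5.35% of genes called in the same direction. Without ACHN control inhibitor replicate 2, TGFB1 and SMAD2 were no longer called in ACHN (adjusted p = 0.0622 and 0.0724), which leaves TGFBR2 as the 1 gene of that kind, and TGFB1 alone was lost without the other ACHN libraries named above. In bulk RNA, fewer cells with a transcript and less of it per cell cannot be told apart, and the changes are relative to the total of each library.

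The responses of A-498 and 786-O to the mimic were compared by an interaction term over the 6 mimic and control mimic libraries. With 1 library per group, 786-O gave no estimate of its own spread, and all of the error came from A-498. On that assumption 7 of the 9 genes were called (edgeR, adjusted p under 0.05), where 29.6% of 22587 genes were (2972 lower and 3723 higher in 786-O, or 3931 and 2796 with library size alone). With a biological coefficient of variation fixed at 0.2, above the 3.84% estimated from these libraries, 0 of the 9 were called, and the adjusted p of TGFBR2 was 0.434. DESeq2 called 4 of the 9, namely TGFBR2, TGFB1, TGFB2 and SMAD7, and 5 were called with RLE scaling, with library size alone and with a spread shared by all 12 libraries. The difference of TGFBR2 was log2 -1.04 ± 0.07 (786-O minus A-498; edgeR adjusted p = 7.81e-10), with opposite directions in the lines. The difference was -0.49 ± 0.10 for SMAD7, 0.44 ± 0.07 for TGFB2 and 0.50 ± 0.10 for TGFB1. It was -1.003 ± 0.28 for TGFB3, which DESeq2 did not call (adjusted p = 0.116). The differences of SMAD2 (0.25 ± 0.08) and SMAD4 (0.26 ± 0.09) passed narrowly (adjusted p = 0.0303 and 0.0417) and were lost with DESeq2 and under the other scalings. They were also lost on leaving out any single A-498 library except control mimic replicate 1, with adjusted p-values of 0.173 to 0.320 for SMAD2 and 0.217 to 0.273 for SMAD4. For TGFBR1 the difference was 0.01 (95% interval -0.17 to 0.18) and for SMAD3 -0.06 (95% interval -0.23 to 0.10).

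Other genes of the pathway were counted in 6 lists. Their counts are to be read against the shares over all genes, which in A-498 were 27.0% for falls and 25.5% for rises and in ACHN 14.4% for falls and 17.3% for rises. The lists were chosen with earlier results of these data known, so a count above these shares is no independent result. Values for 786-O compare 1 library with 1 and have no test. Of the 15 tested genes for latency and activation in A-498, 6 fell and 6 rose with the mimic, with a median log2 change of 0.00. ITGB1, the integrin beta 1 chain, fell by 1.70 on the log2 scale, from 1669 ± 47.6 to 509.9 ± 0.286 CPM (SD, n = 2), and BMP1, a protease that frees latent complexes from the matrix, changed by -0.86. ITGB3, the integrin beta 3 chain, rose by 0.89 and PLAT, a plasminogen activator, by 1.09. In 786-O the log2 ratios of ITGB1, BMP1, ITGB3 and PLAT were -1.05, -1.28, 0.28 and -0.15. In ACHN, 9 of 16 rose and 2 fell with the inhibitor, with a median of 0.20. BMP1 rose by 0.54 and PLAT by 0.83, while LTBP4, a latent TGF-beta binding protein, changed by -0.29 and THBS1, an activator of latent TGFB1, by -0.24. The lower count of 2 became 1 without ACHN control inhibitor replicate 3, inhibitor replicate 1 or inhibitor replicate 3.

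Among 7 co-receptors tested in A-498, 4 fell and 2 rose, with a median of -0.73. BAMBI, a decoy receptor, changed by -1.39 and NRP1, a neuropilin, by -0.78, while TGFBR3, or betaglycan, which presents TGFB2 to TGFBR2, rose by 0.50 and NRP2 by 0.21. Of 6 tested in ACHN, 4 rose and 0 fell (the other 2 did not pass the edgeR test), with a median of 0.36, and TGFBR3 and NRP1 rose by 0.54 and 0.37. The higher count of 4 became 2 without ACHN control inhibitor replicate 1 or replicate 3. TGFBR3 thus rose in both lines, as TGFBR2 did. In 786-O the log2 ratios of BAMBI, NRP1, TGFBR3 and NRP2 were -0.60, 0.24, 0.55 and -0.48.

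Of 21 regulators of SMAD activity tested in each line, 6 fell and 8 rose in A-498 (median 0.00) and 3 fell and 5 rose in ACHN (median -0.01). TGIF2, a corepressor of SMAD-driven transcription, changed by -1.15 in A-498 and by 0.81 in ACHN, and PMEPA1, a feedback inhibitor that holds SMAD2 and SMAD3, by -0.73 and 0.50. USP11, a deubiquitinase, rose by 0.75 in A-498 and changed by -0.16 in ACHN. HGS, an endosomal adaptor, rose by 0.33 in A-498, and PPM1A, a SMAD phosphatase, changed by -0.17 in ACHN. In 786-O the log2 ratios of TGIF2, PMEPA1, USP11 and HGS were -1.51, -0.94, 0.67 and 0.25. The higher count in A-498 went from 8 to 5 without control mimic replicate 1 or mimic replicate 2 and to 4 without mimic replicate 1, and the lower count in ACHN went from 3 to 1 without control inhibitor replicate 1 or 2 or inhibitor replicate 3. With library size alone the lower count in A-498 went from 6 to 3.

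Of 15 transcription factors that partner SMADs, 4 fell and 5 rose in A-498 (median 0.00), and of 14 in ACHN, 1 fell and 5 rose (median -0.05). ATF3, a stress-induced factor, rose by 2.40 in A-498, from 21.3 ± 0.344 to 112 ± 0.726 CPM (SD, n = 2), and by 0.50 in ACHN. JUN, part of AP-1, rose by 0.39 in A-498, where SP1 and SNAI1 changed by -0.46 and -0.43. In ACHN, FOXO3 rose by 0.44 and RUNX2 changed by -0.33. In 786-O the log2 ratios of ATF3 and JUN had the opposite sign to A-498, at -1.28 and -0.72, and those of SP1 and SNAI1 were -0.39 and -0.63. The higher count went from 5 to 3 in A-498 without mimic replicate 1 or without the filter, and in ACHN without control inhibitor replicate 1 or 3. The lower count in ACHN went from 1 to 4 without inhibitor replicate 2, to 3 with RLE scaling, and to 2 without control inhibitor replicate 1, with library size alone or without the filter.

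Of 22 transcriptional responders tested in A-498, 10 fell and 5 rose with the mimic (median -0.12), and of 23 in ACHN, 3 fell and 10 rose with the inhibitor (median 0.17). ANGPTL4, a secreted regulator of lipases, changed by -1.08 in A-498 and by 1.26 in ACHN. TPM1, a tropomyosin, changed by -1.36 and CDKN1A, the cell cycle inhibitor p21, by 0.57 in A-498. In ACHN TPM1 changed by 0.46 and CDKN1A by 0.82, so CDKN1A rose with the mimic in A-498 and with the inhibitor in ACHN. In ACHN, ID2, a repressor of differentiation factors, changed by -0.40 and FN1, fibronectin, by -0.38. Both also fell with the mimic in A-498, ID2 by a log2 change of -0.21 and FN1 of -0.28. In 786-O the log2 ratios of ANGPTL4, TPM1 and CDKN1A were -0.05, -0.91 and -0.60, so that of CDKN1A had the opposite sign to A-498. With library size alone the higher count in A-498 went from 5 to 8.

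Of 22 genes of the activin and BMP arm tested in A-498, 11 fell and 3 rose (median -0.13), and of 17 in ACHN, 3 fell and 3 rose (median 0.09). INHBA, an activin subunit, changed by -1.06 in A-498 and by 0.54 in ACHN, and INHBB by -1.20 in A-498. GDF15, a stress-induced ligand, rose by 1.61 and BMP2 by 0.28 in A-498. In ACHN, NOG, a BMP antagonist, rose by 0.40, while ACVR2B, an activin receptor, and SMAD9 changed by -0.32 and -0.47. The higher count in ACHN went from 3 to 6 without inhibitor replicate 2. The 786-O log2 ratio was -2.74 for INHBA, while those of INHBB, GDF15 and BMP2 had the opposite sign to A-498, at 1.09, -0.57 and -0.73. GDF15 was low in 786-O, at 1.74 CPM in the control and 1.18 CPM with the mimic, and its ratio was within 1.5-fold. In 786-O, at least 1.5-fold lower and higher levels were seen for 5 and 2 of 15 latency genes, 2 and 0 of 6 co-receptors, 3 and 3 of 22 regulators, 4 and 0 of 15 partners, 8 and 1 of 22 responders, and 5 and 2 of 19 genes of the activin and BMP arm. Over all 20370 genes compared in 786-O, 19.0% were at least 1.5-fold lower and 15.7% at least 1.5-fold higher. Every value given for a listed gene in A-498 or ACHN as risen, fallen or changed passed the edgeR test at an adjusted p under 0.05 in that line.

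**Figure D5:**
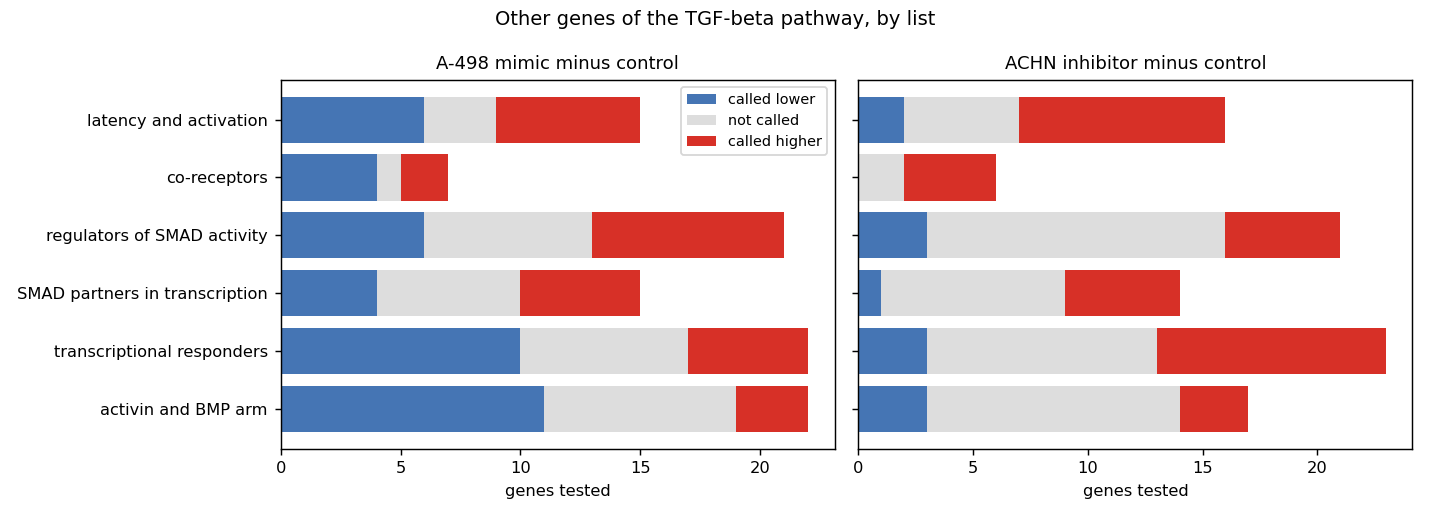
Number of genes tested in each of the 6 lists that were called lower, not called or called higher (edgeR, adjusted p under 0.05), for the mimic in A-498 and the inhibitor in ACHN. Among responders, 10 of 22 fell in A-498 and 10 of 23 rose in ACHN.

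Genes with the pattern most like each of the 9 were found by Pearson's r of log2 CPM centred within each line, over 12 libraries and among 13230 genes. These points share their libraries and treatments, so r is a description only. TGFB2 was most like TCEAL4 (r = 0.997) and SPDL1 (0.996), TGFB3 was most like RAB11FIP1 (0.995) and TPST2 (0.993), and SMAD7 was most like PLEKHM2 and ATXN7L3 (both 0.993). TGFBR1 was most like MEF2A (0.984) and NHLRC3 (0.980), TGFBR2 was most like ENSG00000225339 (0.984) and LGALS8 (0.974), and TGFB1 was most like ENSG00000274307 (0.924) and SAMD1 (0.922). SMAD3 was most like ABL1 (0.995) and ZNF282 (0.994), SMAD2 was most like SUGT1 (0.986) and PAFAH1B2 (0.980), and SMAD4 was most like PPP2CA (0.967) and ELMOD2 (0.957).

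The counts of 2 members carry a limit from overlapping annotation. TGFB2 shares exon sequence on the same strand with TGFB2-OT1, and SMAD4 with a readthrough gene, ENSG00000267699. Both of these had 0 reads in every library, and reads in the shared sequence were not assigned to either gene by the counting mode the study used.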

How the data were processed

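The authors prepared stranded libraries after ribosomal RNA depletion, aligned paired reads to GRCh38 with HISAT2, obtained read counts by HTSeq-count (strict intersection) on the Ensembl v87 annotation, and deposited them raw, not normalised. Their deposited DESeq2 tables (log2 fold changes, standard errors and p-values) were not used. Symbols for 56948 of 58051 gene IDs (98.1%), exon lengths and 3′ UTRs came from GENCODE v44, which differs from the counting annotation. Between 37.2% and 48.0% of reads were assigned to no single gene and were left out. The 9 genes and the pathway lists were chosen with earlier results of these data known.

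Tests within each line were quasi-likelihood tests on the counts (edgeR 4.0.16, R 4.3.3), after TMM scaling and filterByExpr, with Benjamini-Hochberg adjustment at 0.05 over all genes tested. Estimated biological coefficients of variation were 3.83% (A-498) and 5.25% (ACHN). For 786-O the log2 ratio of CPM was taken (prior count 2, at least 10 reads over both libraries). Printed CPM values carry TMM factors over all 12 libraries, so their ratios differ from the fitted differences by at most 0.04 on the log2 scale. From each list, up to 2 genes per direction and line with the largest change among those called, at average log2 CPM 1 or above, were named, except that a responder gene chosen by this rule is not reported here. No replicate library was a copy of another (chi-square over degrees of freedom 3.60 to 11.0 for each pair). The scripts were tested on simulated data. DESeq2 1.42.0, other scalings, no filter, a replicate block and leaving out each library were tried as alternatives.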

Additional observations from a re-analysis of the deposited data

Results flagged for a closer look

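The response to the mimic was called different in A-498 and 786-O (interaction term, edgeR adjusted p under 0.05; 786-O minus A-498, log2) for 7 of the 9 genes, with all of the error taken from A-498 because 786-O had 1 library per group. Of all 22587 genes tested, 29.6% were called. The differences were -1.04 for TGFBR2, -1.003 for TGFB3, -0.49 for SMAD7, 0.50 for TGFB1, 0.44 for TGFB2, 0.26 for SMAD4 and 0.25 for SMAD2. DESeq2 did not call those of TGFB3, SMAD2 and SMAD4, RLE scaling and library size alone did not call those of SMAD2 and SMAD4, and 0 of the 9 were called with a biological coefficient of variation of 0.2. TGFBR2 had opposite directions, with a ratio of 0.602 in 786-O and a fold change of 1.28 in A-498.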

How the results depend on the processing

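In A-498 the 8 calls among the 9 genes kept their direction and side of the threshold under other scalings, without the filter, with DESeq2 and without each library (8 to 8 called). SMAD4, not called, changed sign to 0.0526 (log2) with library size alone and ranged from -0.0793 to 0.0195 without each library. In ACHN the number called was 4 to 6 without each library. The replicate block gave 6 called, as without it, and changed no call of the 9 genes. Same-numbered ACHN libraries did not deviate together (r = 0.18, -0.25 and -0.08), and the A-498 groups share fewer than 2 numbers. For the difference between 786-O and A-498, 4 of the 9 genes were called with DESeq2, 0 with a biological coefficient of variation of 0.2 and 5 to 7 without each A-498 library. DESeq2 no longer called TGFB3 there (adjusted p = 0.116). TGFBR1, not called, changed sign to -0.0317 with RLE scaling, -0.0318 with DESeq2, -0.0915 with library size alone and -0.0205 without the filter, and ranged from -0.147 to 0.0702 without each A-498 library. Without each control library, 8 to 9 genes differed between A-498 and ACHN. In 786-O, 1 of the 9 genes was past a threshold of 2-fold, and no call at 1.5-fold changed with the prior count or scaling. The number of genes with TGGTGCT was 0 in the first 2000 nt and 2 in the MANE transcripts. The cause of these changes was not tested.

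Levels per kb, and the ligand shares taken from them, depend on the length used. With the MANE transcript, chosen after seeing the data, TGFBR2 (21.3 CPM per kb) was above TGFB2 (19.9) in the A-498 controls, as in ACHN (11.9 and 10.7), where SMAD4 was 8.86 and TGFB1 4.68. The low counts of TGFB3 limit its precision. With 1 library per group, 786-O values have no replicate error.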
